A study of Mus musculus with 17 samples.

Results

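Replication-dependent core histone genes are the members of the H2A, H2B, H3 and H4 families that sit in histone clusters and carry cluster names. Members were the rows of the deposited gene table whose NCBI Gene ID maps to a mouse protein-coding symbol of the form H2ac, H2bc, H3c or H4c followed by a number, with the testis-specific neighbours H2ac1 and H2bc1 left out. The rule matched 55 symbols, and 53 of them have a row among the 24594 rows of the table: 14 H2A, 15 H2B, 12 H3 and 12 H4 genes. H2ac19 and H2ac24 have no row of their own.

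RNA of sorted mouse male germ cells was sequenced at 5 stages with 3 libraries each. LZ stands for spermatocytes in leptotene/zygotene, PD for those in pachytene/diplotene, RS for round spermatids, and EES and LES for the early and the late elongating forms, all labelled as untreated wild-type C57BL/6JRj males of 3 months whose testis cells were stained with Hoechst 33342 and SYTO 16. A single library of round spermatids is titled as juvenile at 23 days post partum (RS23) and another of elongating spermatids as sorted by Prm1-EGFP (PrmES). Both were stained with Hoechst 33342 alone, carry the same strain, genotype and 3-month age labels as the rest, which differs from their titles, and are described without a test. Whether the 3 libraries of each stage are of different mice is not stated, so the p-values here reflect a spread among libraries that may be technical.

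Cluster histone genes supply the histones that package newly copied DNA, and dividing cells make their mRNA mainly during S phase. These mRNAs usually have no introns and end in a conserved stem-loop in place of a poly(A) tail, which the stem-loop binding protein Slbp recognises for 3′ processing. In the male germ line the last S phase comes before leptotene, and late spermatids exchange most of their histones for protamines.

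By RefSeq positions on GRCm38.p6, 44 members lie on chromosome 13 in a proximal group of 20 (chr13:21715711-22043658) and a distal group of 24 (chr13:23531044-23762386). The other 9 lie on chromosome 3 (chr3:96219885-96270192). The stem-loop is shown here in its commonest forms because it is the feature that sets this class of mRNA apart, with the loop in capitals and the 6-base stem arms in lower case.

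H2A, H2B and H3 form: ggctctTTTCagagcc
H4 form: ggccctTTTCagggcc
H2B and H3 form: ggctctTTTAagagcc

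The first form was found in 19 members, the second in 6 and the third in 5. The pattern searched was GG, any 3 bases, TT, any base, T, any base, A, any 3 bases and CC, on the sense strand of GENCODE M21 transcripts, within 100 bases after the stop codon. It was present in 37 of the 41 members with sequence there (90.2%) and in 52 of 20296 other genes (0.256%). On chromosome 3 no match was found for H2ac21, H2bc21, H3c13 or H2bc18. A missing match can also mean that the transcript model has no sequence after the stop codon. H2ac20 carried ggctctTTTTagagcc, the only member with that loop on that stem.

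Promoter sequence is shown for members whose values the results turn on, as the 150 bases upstream of the start, 5′ to 3′ on the gene's strand, from RefSeq (GRCm38.p6). H4c3 and H2bc14 had the highest LZ means of their types, H2bc22 had the most RNA of the chromosome 13 members in round spermatids, and H2ac21 and H2ac18 are chromosome 3 genes with their highest mean in PD. The start of H2bc22 in the promoter table lies a few bases inside its annotated span, so its stretch ends there. Capitals mark CCAAT on either strand, the TATA letters TATAAA, the octamer ATTTGCAT and the letters GGTCCG.

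H4c3 (chr13:23698459-23698608, minus strand): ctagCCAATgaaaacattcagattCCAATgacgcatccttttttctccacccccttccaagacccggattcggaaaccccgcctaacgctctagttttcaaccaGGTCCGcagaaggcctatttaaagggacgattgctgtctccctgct
H2bc14 (chr13:21721894-21722043, plus strand): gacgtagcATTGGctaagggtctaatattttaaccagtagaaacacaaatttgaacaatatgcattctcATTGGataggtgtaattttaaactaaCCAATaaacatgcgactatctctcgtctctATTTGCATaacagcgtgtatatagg
H2bc22 (chr13:21787338-21787487, plus strand): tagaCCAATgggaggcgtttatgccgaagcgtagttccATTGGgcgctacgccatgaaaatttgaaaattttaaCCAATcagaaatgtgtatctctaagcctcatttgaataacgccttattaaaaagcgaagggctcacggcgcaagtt
H2ac21 (chr3:96219735-96219884, plus strand): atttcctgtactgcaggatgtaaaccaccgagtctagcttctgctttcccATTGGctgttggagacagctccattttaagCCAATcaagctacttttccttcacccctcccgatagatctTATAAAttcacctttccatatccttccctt
H2ac18 (chr3:96245347-96245496, plus strand): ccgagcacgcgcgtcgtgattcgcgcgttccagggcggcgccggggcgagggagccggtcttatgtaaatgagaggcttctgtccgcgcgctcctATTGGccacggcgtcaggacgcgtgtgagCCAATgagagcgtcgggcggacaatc

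RefSeq promoters matched 48 members, and motifs were counted over 250 upstream bases on both strands. CCAAT, the core of the box bound by NF-Y, was present in 14 of 14 H2A, 13 of 13 H2B, 8 of 10 H3 and 3 of 11 H4 promoters, against 37.5% of all 27025 promoters in the table. The octamer ATTTGCAT, which Oct factors bind in human H2B promoters, was present in 6 of 13 H2B and 5 of 14 H2A promoters and in none of the H3 or H4 promoters, against 1.81% of all promoters. GGTCCG, letters of an element described in human H4 promoters, was present in 8 of 11 H4 promoters, against 7.69% of all. TATAAA was present in 22 of the 48 members and in 14.3% of all promoters. In the 7 matched chromosome 3 promoters, 5 held CCAAT, 2 held TATAAA, 2 held ATTTGCAT and none held GGTCCG. These matches are letters in a window and show no binding.

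Library totals recovered from the table were 90.6 to 137.8 M reads over the 15 stage libraries, 159.2 M in RS23 and 149.2 M in PrmES, and genes of the table held 48.4% to 87.7% of the reads. Spearman correlations across tested genes within a stage were 0.937 to 0.990 in LZ and 0.871 to 0.979 in EES, and LZ replicate 3 and EES replicate 2 were the libraries that stood apart. Levels are given in RPKM, reads per kilobase of exon, scaled to library depth.

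Single members need care because the genes are near copies of each other. All 12 H4 genes encode the same protein, the 12 H3 genes encode 2 proteins, and 51 of the 55 matching genes share an exact run of at least 100 bases with another gene of their type. How reads with several equal positions were counted is not stated. Exon lengths behind the values ran from 312 bases (H4c12) to 2956 (H3c14), which bears on RPKM comparisons between members. The exon length behind the values differed from the gene's own in 5 rows. The H2ac18 row rests on 1114 bases, the sum of H2ac18 and H2ac19 at 586 and 528 bases, and the H2ac23 row on 962 bases, the sum of H2ac23 and H2ac24 at 480 and 482 bases. The H2bc23 and H2bc6 rows rest on 2593 and 2510 bases, where GENCODE M21 gives 2015 and 4446, and what the difference holds was not tested. The H3c14 row rests on 2956 bases, which is the length of a longer gene model (chr3:96245554-96248509) that overlaps H2ac18 by 529 bases. Reads of H3c14 were 0.525 to 0.606 times those of H2ac18 in every one of the 17 libraries, so these rows are not independent.

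The members together were highest in LZ and low in spermatids. Their summed level was 2546, 4359.7 and 3451 RPKM in the 3 LZ libraries, 511, 401 and 289 in PD, 182, 147 and 133 in RS, 80.5, 219 and 85.6 in EES, and 91.3, 80.9 and 133 in LES. Each LZ library lay above every library of the other stages. Genes of the table held 48.4% to 64.9% of reads in LZ and 73.4% to 77.0% in PD, and scaled to those reads alone the sums averaged 529 in PD and 6294.7 in LZ. Counting members at or above 1 RPKM gave 47 to 51 per LZ library, 27 to 30 per PD library, 13 to 15 per RS library, 10 to 16 per EES library and 16 to 24 per LES library. Of all 24594 genes, 10923 to 11544 reached that level per LZ library, 9222 to 9316 per PD library and 9976 to 10147 per RS library. The same counts were 6580 to 9027 per EES library and 7021 to 8368 per LES library. The stage mean was highest in LZ for 46 of the 53 members and in PD for 7, and all 7 are on chromosome 3. Among all 13260 tested genes, 37.9% were highest in LZ and 21.6% in PD. These are bulk samples, so fewer cells of a kind and less RNA per cell cannot be told apart.

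**Figure D1:**
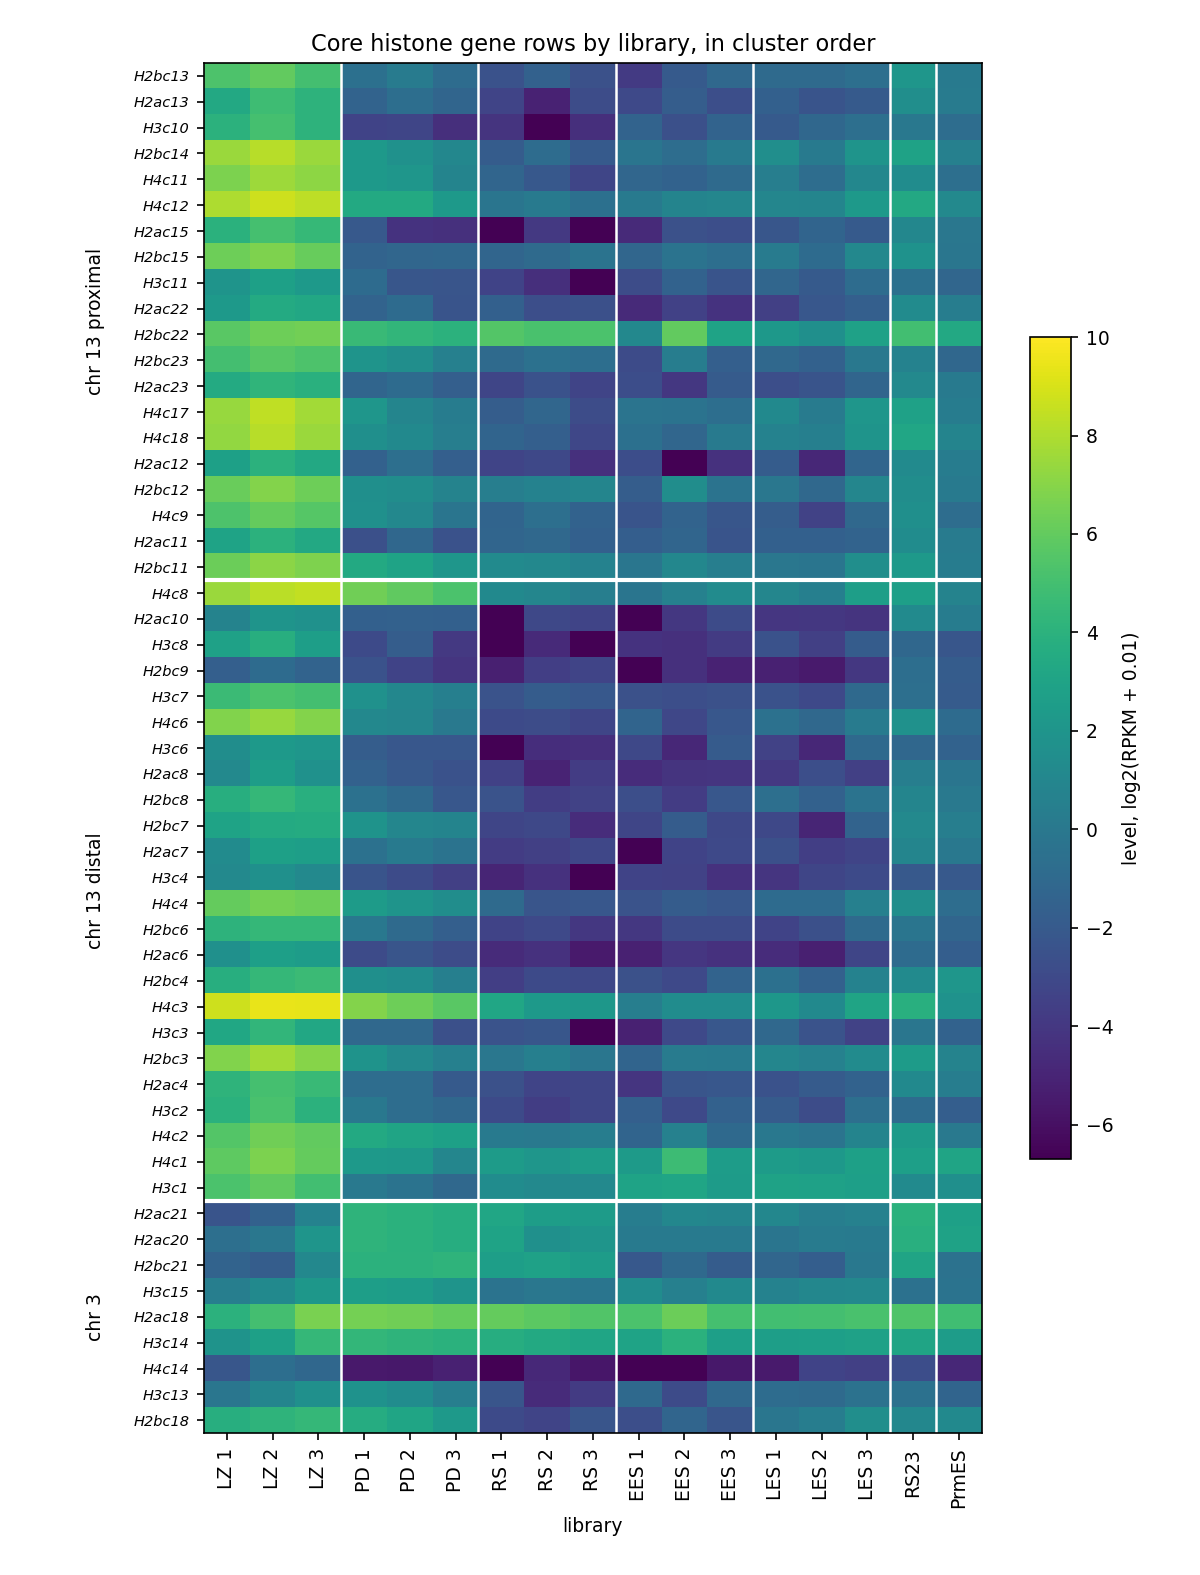
Level of each of the 53 members in the 17 libraries, as log2(RPKM + 0.01) by colour, with members in genomic order (rows) and libraries by stage (columns). All 44 chromosome 13 rows have their highest stage mean in LZ, and 7 of the 9 chromosome 3 rows have their highest stage mean in PD.

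H4 genes made up 62.8% to 64.9% of the summed level in LZ, and their sum was 1598, 2754 and 2239 RPKM there. H2B genes followed with 718, 1163 and 825 RPKM, then H2A with 102, 216 and 234 and H3 with 127, 227 and 154. H2A and H3 overlapped in LZ, while H2B lay above both and H4 above H2B in each library. By RS the order had changed: H2A held 41.3% to 46.7% of the summed level, H2B 32.1% to 38.4%, H4 10.3% to 11.5% and H3 the rest. The H2ac18 row, which also counts H2ac19, averaged 55.1 of the 68.1 RPKM of H2A in RS. In PD it averaged 80.5 of the 115 RPKM of H2A. The 5 highest members held 46.9% to 50.1% of the summed level in the LZ libraries.

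**Figure D2:**
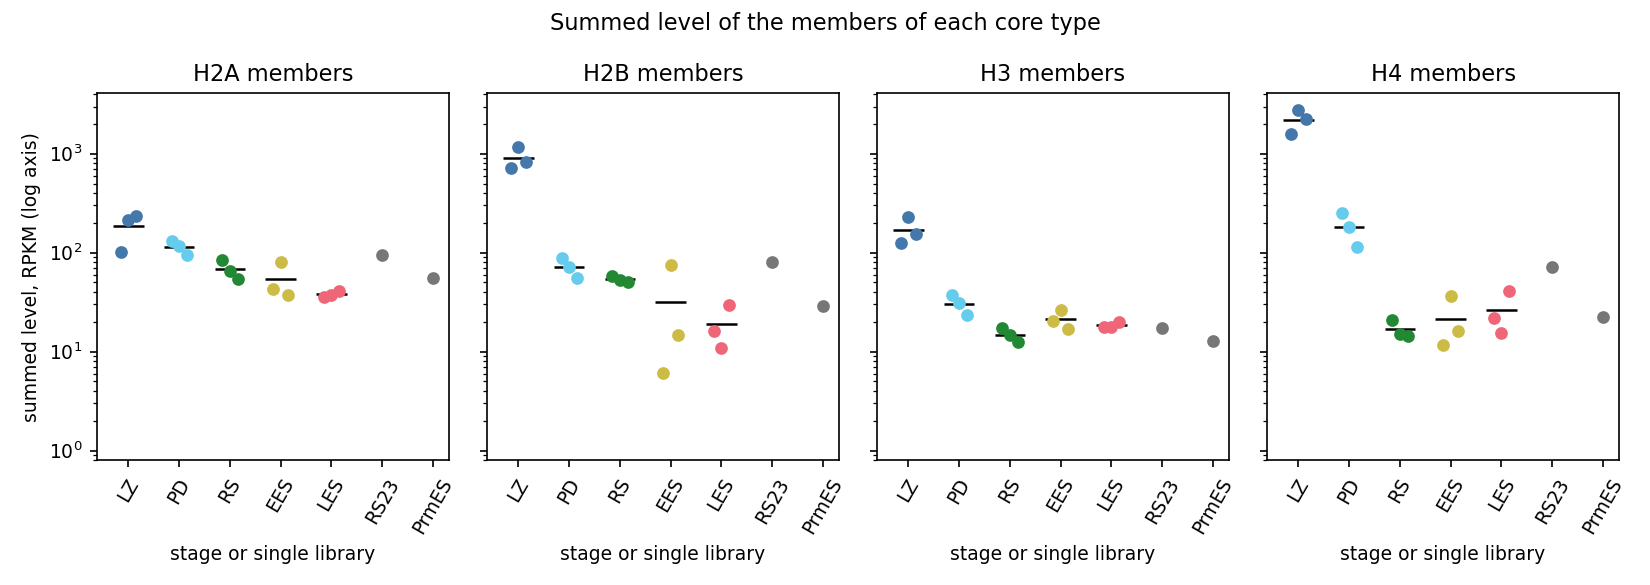
Summed RPKM of the members of each core type (log axis) in every library, with a line at the mean of each 3-library stage and single points for RS23 and PrmES. H4 is at most 252 RPKM in PD and at least 1598 RPKM in each LZ library. The H2A sum, most of which in PD is the H2ac18 row, differs least between these stages.

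Head-to-head pairs, an H2A and an H2B gene that start back to back, share a short stretch of promoter. The members form 10 such pairs with 163 to 248 bases between the starts. In 9 of the 10 the H2B gene had more RPKM than its H2A partner in all 3 LZ libraries, and over pairs and libraries the ratio of H2B to H2A had a median of 3.76 and ranged from 0.298 to 10.7. The exception in RPKM was H2bc21 with H2ac20 on chromosome 3, where the ratio was 0.577, 0.298 and 0.536. These rows rest on exon lengths of 2620 and 520 bases. In reads H2bc21 was the higher of them, with 96, 75 and 554 in LZ against 33, 50 and 205. The widest ratios were those of H2bc12 to H2ac12 and H2bc11 to H2ac11, each reaching 10.7, and of H2bc22 to H2ac22, reaching 10.6. Since 9 H2A genes encode the same protein and share long identical runs, the part of read placement in these ratios was not tested.

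**Figure D3:**
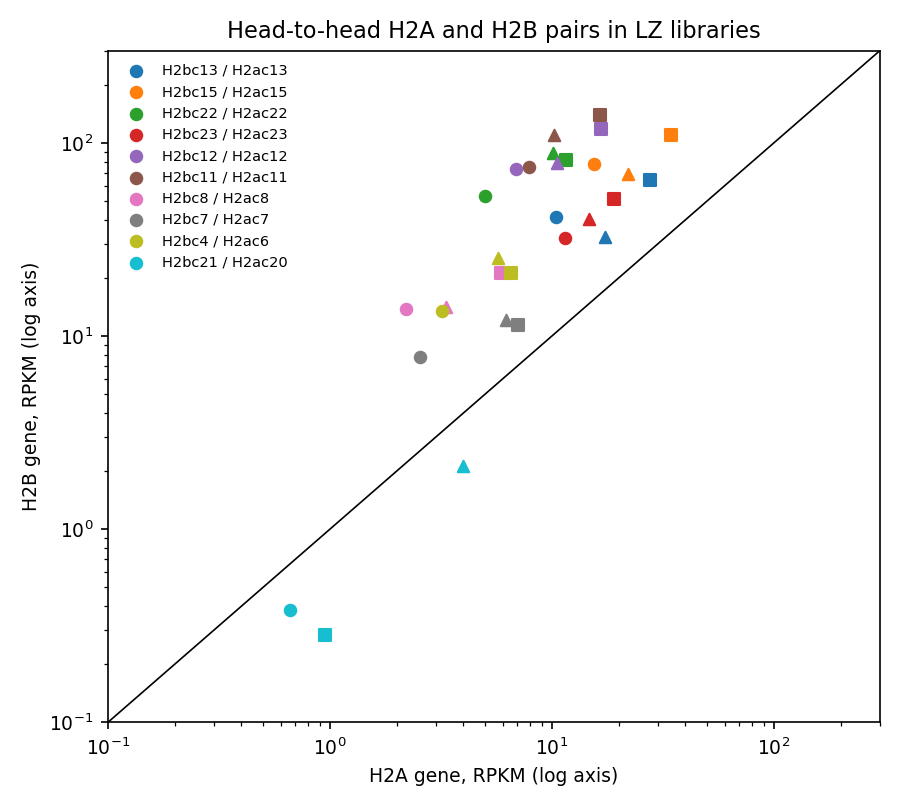
RPKM of the H2B gene against its head-to-head H2A partner in the 3 LZ libraries (circle, square and triangle for replicates 1, 2 and 3; log axes; the line marks equal levels). Points of 9 pairs lie above the line and those of H2bc21 with H2ac20 below it.

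From leptotene/zygotene to pachytene/diplotene the chromosome 13 genes fell and several chromosome 3 genes rose. Without any filter on low values, 44 of the 53 members fell and 4 rose in PD vs LZ, against 32.4% and 16.7% of all 24594 genes. A member counted as having risen or fallen with a limma adjusted p under 0.05 (Benjamini-Hochberg over all genes tested) and a log2 fold change of at least 1 in size, where fold changes are on the log2(100 × RPKM + 1) scale, a pseudocount of 0.01 RPKM that understates changes of low genes. With the filter used below, at least 1 RPKM in 3 of the 15 stage libraries, 42 of 51 tested members fell and 4 rose, against 35.8% and 25.5% of 13260 genes. The median log2 fold change was -4.61 for the members and -0.36 for all tested genes. Of the tested members, 19 reached 1 RPKM in the 3 LZ libraries and in no other, so for them the filter itself favoured a fall. The PD libraries lay wholly below the LZ libraries for 46 of all 53 members and wholly above for 3; among all tested genes these shares were 46.3% and 34.8%. Rises were 41.6% of all changed genes on the deposited scale; under median centring of the libraries they were 53.0%, and 43 members fell and 6 rose.

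All 4 core types fell on chromosome 13. Of the 43 tested members there 42 fell and none rose, and the type counts over both chromosomes were 11 of 14 H2A, 11 of 14 H2B, 9 of 12 H3 and 11 of 11 H4. Median log2 fold changes by type were -4.64 for H2A, -4.58 for H2B, -4.22 for H3 and -4.79 for H4. The summed level of the chromosome 13 members was 323, 237 and 152 RPKM in PD, against 2509, 4297 and 3292 in LZ, a ratio of 14.2 between the LZ and PD means.

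H4c3 (chr13:23698084-23698458) was the highest member in every LZ library. It stood at 118, 80.1 and 52.6 RPKM in PD, against 418, 687 and 655 in LZ (log2 fold change -2.85 ± 0.48 SE, limma adjusted p = 1.31e-04). The stages did not overlap, and H4c3 was still the highest chromosome 13 member in PD. H4c12 (chr13:21750145-21750553) had 11.1, 10.8 and 4.92 RPKM in PD and 247, 418 and 330 in LZ (-5.27 ± 0.42, adjusted p = 1.97e-07). H4c17 and H4c18 fell most among H4 genes, with log2 fold changes of -6.72 ± 0.54 and -6.58 ± 0.54 (limma adjusted p = 2.26e-07 and 2.51e-07).

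H4 genes thus differed in how much remained. H4c8 (chr13:23531044-23531478) had 84.0, 60.8 and 38.8 RPKM in PD, against 179, 307 and 359 in LZ, the smallest fall of an H4 gene (-2.21 ± 0.54, limma adjusted p = 0.00253). The coding copies are the same protein, so these differences concern which gene's RNA was counted and not which histone it encodes.

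H2bc14 (chr13:21722044-21722526) was the highest H2B gene in LZ. It had 4.73, 3.35 and 2.00 RPKM in PD and 183, 296 and 183 in LZ (-6.08 ± 0.48, limma adjusted p = 2.03e-07). H2bc3 had 3.68, 2.24 and 1.46 RPKM in PD, against 116, 208 and 125 in LZ. H2bc15 fell most among H2B genes, to 0.381, 0.429 and 0.459 RPKM in PD, against 78.0, 110.3 and 69.0 in LZ (-7.60 ± 0.43, adjusted p = 1.16e-08). For all 3 genes every PD library was far below every LZ library.

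Among H2A genes of chromosome 13, H2ac4 had 0.595, 0.587 and 0.246 RPKM in PD and 18.2, 34.3 and 24.9 in LZ. H2ac15 had the largest fall of any member, with 0.231, 0.0416 and 0.0371 RPKM in PD and 15.5, 34.3 and 22.1 in LZ (-8.09 ± 0.82, limma adjusted p = 1.83e-06). The PD values of H2ac15 rest on 10, 2 and 2 reads.

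The H3 sums are given by protein. H3c1, H3c8, H3c10 and H3c11 encode one form of H3 and the other 8 members the other form, known as H3.1 and H3.2. The H3.1 genes summed to 1.74, 1.34 and 0.763 RPKM in PD, against 65.5, 113 and 58.9 in LZ. For the H3.2 genes the sums were 35.4, 29.7 and 22.8 RPKM in PD and 61.2, 114 and 94.7 in LZ, and H3c14 with its shared model supplied 20.5, 17.9 and 15.3 RPKM of the PD sums. On chromosome 3, H3c14, H3c15 and H3c13 averaged 17.9, 5.27 and 2.51 RPKM in PD, against 29.3 for all H3.2 genes. The H3.2 genes of chromosome 13 (H3c2, H3c3, H3c4, H3c6 and H3c7) all fell, with log2 fold changes of -5.22 to -3.89. The H3.1 genes, all on chromosome 13, fell too, at -8.05 to -4.17. The higher H3.2 sum in PD thus lay mainly in chromosome 3 rows, chiefly that of H3c14, whose model overlaps H2ac18. The de novo gene over H3c14, which covers 48.6% of it, had only 0.864, 0.920 and 0.942 RPKM in PD. The part of H2ac18 reads in the H3c14 row, and so in the H3 sums, was not tested. H3c1 (chr13:23761885-23762386), the highest H3 gene in LZ, had 1.00, 0.765 and 0.477 RPKM in PD and 38.1, 59.3 and 30.9 in LZ (-5.83 ± 0.30, limma adjusted p = 6.18e-09). H3c10 fell by 8.05 ± 0.65 on the log2 scale and H3c8 by 6.00 ± 0.64 (limma adjusted p = 2.23e-07 and 2.80e-06). H3c7, the second highest H3 gene, had 3.30, 2.07 and 1.39 RPKM in PD and 25.2, 38.1 and 32.6 in LZ.

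H2bc22 (chr13:21787483-21801561) was the chromosome 13 member tested without a call. It stood at 24.4, 19.5 and 16.5 RPKM in PD and 53.3, 81.1 and 88.5 in LZ, so the libraries did not overlap (-1.87 ± 0.84, limma adjusted p = 0.0633). Its annotated span is far longer than a histone coding sequence, and the de novo transcript that overlaps it has 2 exons.

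**Figure D4:**
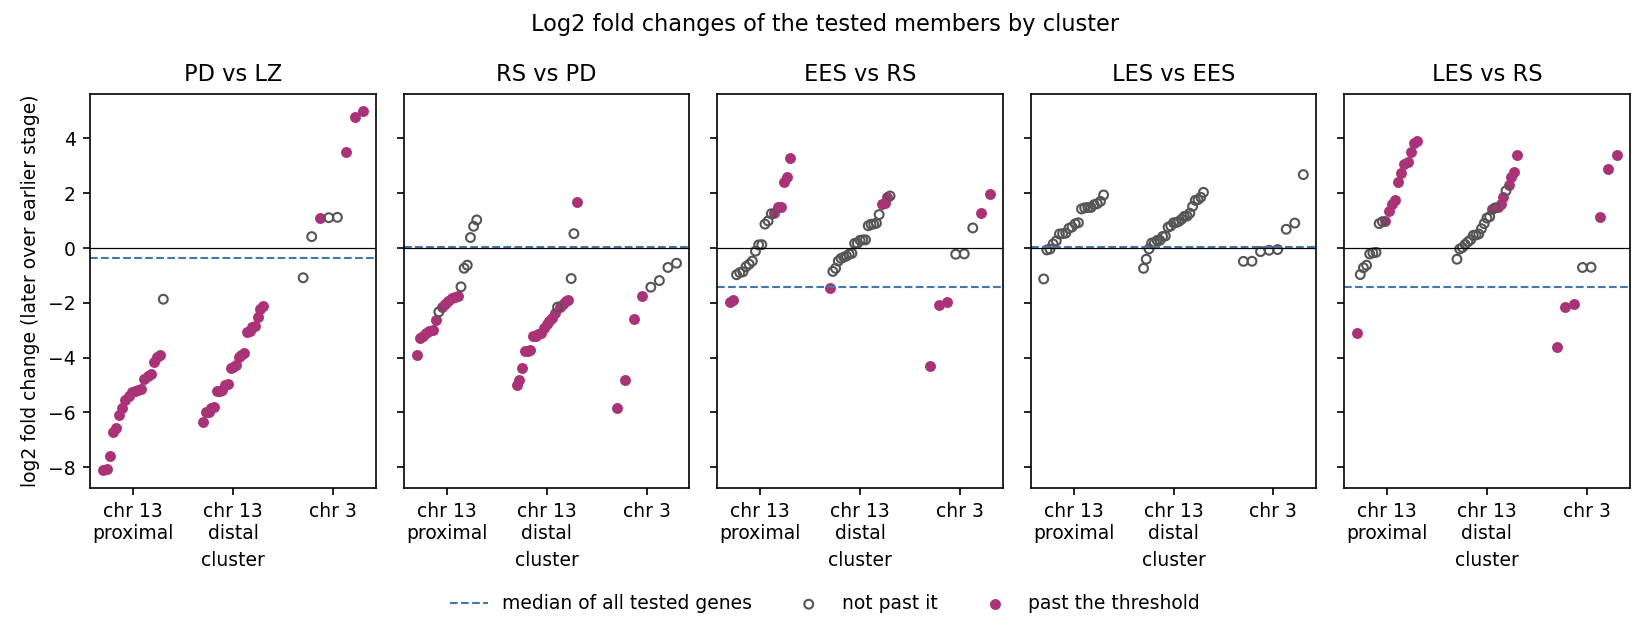
Log2 fold change of each tested member (later over earlier stage, on the log2(100 × RPKM + 1) scale) in 5 comparisons, split by cluster; filled points passed the threshold, open points did not, and the dashed line is the median of all 13260 tested genes. In PD vs LZ all chromosome 13 points lie below 0 and 7 of 8 chromosome 3 points above it.

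On chromosome 3 no tested member fell from LZ to PD and 4 of 8 rose. H2ac21 (chr3:96219885-96220354) had 17.5, 15.3 and 13 RPKM in PD, against 0.187, 0.334 and 1.61 in LZ (4.99 ± 0.56, limma adjusted p = 4.38e-06). H2bc21 (chr3:96221072-96223738) had 16.4, 16.5 and 18.2 RPKM in PD and 0.381, 0.283 and 2.13 in LZ (4.77 ± 0.62, adjusted p = 1.54e-05). H2ac20 (chr3:96220413-96220880) had 18.3, 15.4 and 12.8 RPKM in PD and 0.659, 0.95 and 3.98 in LZ (3.49 ± 0.52, adjusted p = 5.23e-05). These neighbours did not overlap between stages, and their highest LZ value was in replicate 3, the LZ library that stood apart. The same de novo transcript holds H2ac21 and H2bc21 and runs antisense across H2ac20. The sources do not say whether counting used the strand, so these rows may share reads and are not independent rises. Without LZ replicate 3 and EES replicate 2, 6 of 51 members rose in PD vs LZ rather than 4, and H2ac21, H2bc21 and H2ac20 were at 5.87, 5.65 and 4.26 on the log2 scale.

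H3c15 rose less, to 6.21, 5.68 and 3.92 RPKM in PD, against 1.37, 2.34 and 4.36 in LZ. The ranges overlapped, and its call (1.10 ± 0.37, limma adjusted p = 0.0169) was lost when LZ replicate 1, PD replicate 1 or PD replicate 2 was left out, at log2 fold changes of 0.69, 0.96 and 1.03 and adjusted p of 0.0945, 0.0632 and 0.0526. It was also lost with a pseudocount of 1 RPKM (0.83) and when scaled to reads in genes (0.66, limma adjusted p = 0.0965). H2ac18, with the H2ac19 reads, had 92.5, 82.0 and 66.9 RPKM in PD and 16.1, 31.5 and 99.7 in LZ (1.11 ± 0.51, adjusted p = 0.0680). H3c14 moved with it, at 20.5, 17.9 and 15.3 RPKM in PD and 3.63, 6.88 and 21.8 in LZ. In both rows LZ replicate 3 was as high as the PD libraries and the other LZ replicates were below all of them.

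H3c13 and H2bc18, at the far end of the cluster, did not pass the test. H3c13 had 3.54, 2.63 and 1.36 RPKM in PD and 0.894, 1.82 and 3.24 in LZ, and H2bc18 had 12.5, 8.71 and 5.08 in PD and 13.6, 17.8 and 21.9 in LZ. H4c14, the only H4 gene of the cluster, did not pass the filter and had 0.01 to 0.0179 RPKM in PD and 0.204 to 0.612 in LZ. As a share of all members' RPKM, chromosome 3 made up 36.7%, 40.9% and 47.3% in PD, against 1.46%, 1.44% and 4.61% in LZ.

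**Figure D5:**
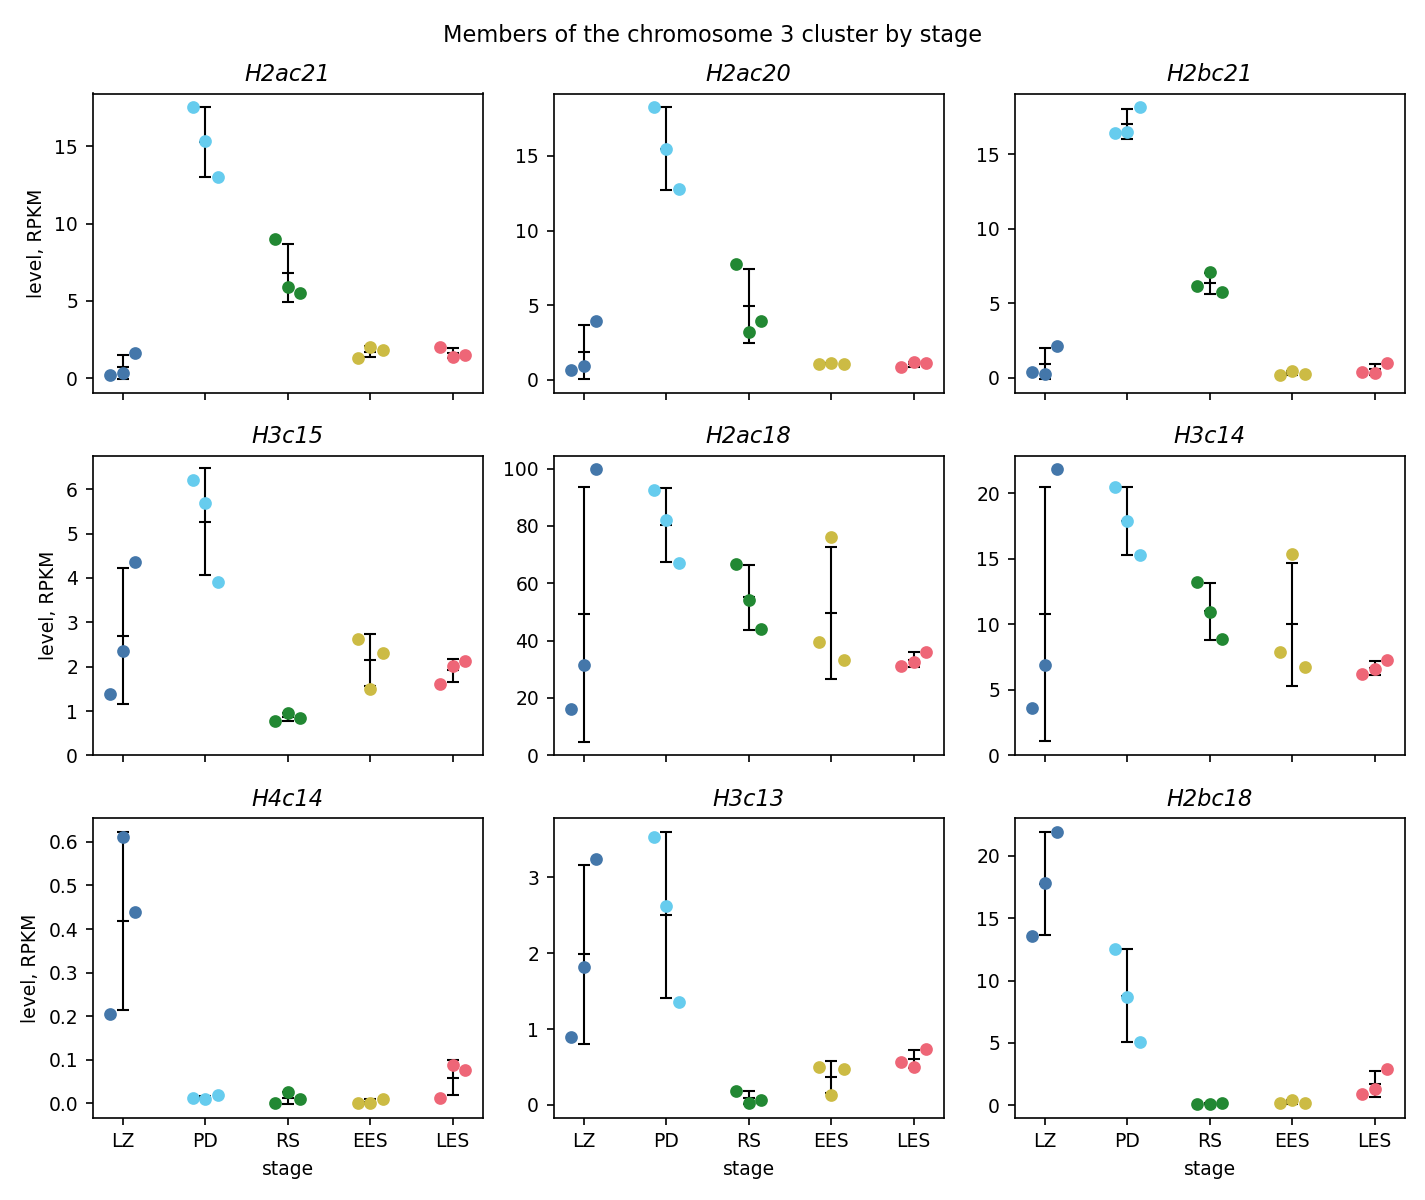
RPKM of the 9 chromosome 3 members in each library of the 5 stages (points), with the stage mean and SD (bars, n = 3); each panel has its own vertical scale. H2ac21, H2ac20 and H2bc21 stand at 12.8 to 18.3 RPKM in PD and at most 3.98 RPKM in LZ, while H2bc18 and H4c14 are highest in LZ.

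Related gene lists, chosen with earlier results of these data known, were read beside the members and against the 35.8% of all tested genes that fell and the 25.5% that rose. All 5 replication-dependent linker histone genes fell from LZ to PD; H1f1, the highest, had 9.46, 7.35 and 4.45 RPKM in PD and 1151, 1659 and 887 in LZ. Of 29 tested S-phase genes 19 fell and 2 rose (median log2 fold change -1.92, all genes -0.36): the activator E2f1 fell by 6.88 ± 0.48, the replicative helicase subunits Mcm2 and Mcm4 were at -6.49 ± 0.27 and -5.84 ± 0.57, and Rrm1 of ribonucleotide reductase and the licensing inhibitor Gmnn rose by 1.22 ± 0.31 and 1.22 ± 0.36. Of 19 genes of histone mRNA 3′ processing and turnover 7 fell, a share near that of all genes, and 2 rose: the cleavage factor Cstf2 fell by 6.27 ± 0.45, Casp8ap2 by 4.01 ± 0.47 and the decapping enzyme Dcp2 by 2.92 ± 0.35, whereas the cap-binding subunit Ncbp1 and the U7 particle protein Lsm10 rose by 2.24 ± 0.67 and 2.05 ± 0.30. Slbp, named after its values were seen, stood at 19, 18.1 and 19.1 RPKM in PD and 20.8, 17.7 and 30.1 in LZ. Cstf2t of the same list, also named here after its values were seen, did not pass the test (0.22 ± 0.38, limma adjusted p = 0.618). It had 23.7, 23.9 and 23.0 RPKM in PD and 19.5, 14.8 and 28.5 in LZ. Among 17 histone chaperones 5 fell and 3 rose, led by Atrx at -6.48 ± 0.48 and the CAF-1 subunit Chaf1a at 1.84 ± 0.26. Of 16 polyadenylation genes 3 fell and 4 rose, led by Cpsf6 at -2.79 ± 0.21 and the testis poly(A)-binding gene Pabpc2 at 4.56 ± 0.49.

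The excluded neighbours were also lower in PD than in LZ but kept more RNA than the chromosome 13 members. H2ac1 fell (log2 fold change -2.79 ± 0.49, limma adjusted p = 2.19e-04), whereas H2bc1 did not pass the test (-1.46 ± 0.69, adjusted p = 0.0763). H2bc1 had 1440.3, 1067 and 588 RPKM in PD and 1689, 2568 and 4299.6 in LZ, and H2ac1 had 151, 114 and 66.5 in PD and 556, 844 and 809 in LZ.

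Markers of earlier and of somatic cells also moved between these stages. The 18 spermatogonial and premeiotic markers summed to 11.7 to 16.5 RPKM in PD and 325 to 436 in LZ. Of 10 tested 8 fell, among them Stra8, a gene of meiotic entry, and Sohlh2. The other 2, Gfra1 and Id4, rose by 2.30 ± 0.40 and 1.60 ± 0.60 on the log2 scale. Nanos2, Ret and Sall4 stayed below 1 RPKM in all libraries. The 15 Sertoli cell markers summed to 3.04 to 3.86 RPKM in PD and 92.8 to 154 in LZ, with 8 of 9 tested down and Sox9, Fshr, Gata4 and Kitl below 1 RPKM throughout. Their part in the fall of the members was not tested.

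From pachytene/diplotene to round spermatids most members fell again. In RS vs PD 36 of 51 fell and 1 rose, against 15.2% and 23.4% of all tested genes, and the median log2 fold change was -2.33 for the members and 0.02 for all genes. By type 10 of 11 H4, 9 of 14 H2A, 9 of 14 H2B and 8 of 12 H3 genes fell, and by cluster 32 of 43 on chromosome 13 and 4 of 8 on chromosome 3. Rises were 60.6% of all changed genes, and 49.9% with each library centred on its median, where 39 members fell. Without the filter 34 of 53 members fell and 1 rose, against 9.6% and 19.4% of all genes. The RS libraries lay wholly below the PD libraries for 41 tested members and wholly above for 2, against 34.8% and 38.1% of all tested genes. Many of these falls are between low levels: with a pseudocount of 1 RPKM in place of 0.01, 21 members fell and none rose.

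H4c3 had 9.06, 4.97 and 4.48 RPKM in RS, against 118, 80.1 and 52.6 in PD (-3.75 ± 0.48, limma adjusted p = 2.49e-05). H4c8 had 2.35, 1.93 and 1.35 RPKM in RS and 84.0, 60.8 and 38.8 in PD (-4.99 ± 0.54, adjusted p = 6.58e-06). H4c11 fell by 3.9 ± 0.54 on the log2 scale (adjusted p = 5.25e-05). The H4 sum was 20.9, 15.2 and 14.5 RPKM in RS and 252, 181 and 114 in PD, a ratio of 10.8 between the PD and RS means, whereas the ratio was 1.69 for H2A, 1.33 for H2B and 2.06 for H3. The H2ac18 row made up most of the H2A sum in both stages.

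The largest fall of any member was that of H2bc18, which had 0.122, 0.0952 and 0.198 RPKM in RS and 12.5, 8.71 and 5.08 in PD (-5.85 ± 0.49, limma adjusted p = 7.98e-07). H3c13, next to it, had 0.190, 0.0297 and 0.0618 RPKM in RS and 3.54, 2.63 and 1.36 in PD (-4.82 ± 0.66, adjusted p = 5.09e-05). H2bc7 fell by 4.83 ± 0.74, H3c7 by 3.22 ± 0.45 and H2ac7 by 3.22 ± 0.76. Each of these 5 genes had all RS libraries below all PD libraries. H2ac10, also among the named falls, changed from a low level (-2.77 ± 0.94, adjusted p = 0.0278), and its call was lost when PD replicate 1, 2 or 3 or RS replicate 1 was left out (adjusted p 0.0617 to 0.137).

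Other chromosome 3 genes lost less. H2ac20 had 7.77, 3.18 and 3.93 RPKM in RS and 18.3, 15.4 and 12.8 in PD (-1.74 ± 0.52, limma adjusted p = 0.0149), and H3c15 had 0.781, 0.953 and 0.843 in RS and 6.21, 5.68 and 3.92 in PD (-2.58 ± 0.37, adjusted p = 6.55e-05). H2ac21 stood at 8.97, 5.93 and 5.52 RPKM in RS and H2bc21 at 6.19, 7.08 and 5.73, below all PD libraries, without passing the test (adjusted p = 0.105 and 0.0785). H2ac18 had 66.8, 54.3 and 44.2 RPKM in RS and 92.5, 82.0 and 66.9 in PD (adjusted p = 0.415), and its row with that of H3c14 made up 40.0% to 44.3% of all members' RPKM in RS.

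H2bc22 was the member with the most RNA left on chromosome 13. It had 45.5, 37.7 and 38.5 RPKM in RS, against 24.4, 19.5 and 16.5 in PD (1.02 ± 0.84, limma adjusted p = 0.357), and all RS libraries were above all PD libraries. It supplied most of the H2B sum in RS, which was 58.4, 52.6 and 51.0 RPKM.

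H3c1 was the member that rose. It had 2.62, 2.19 and 2.25 RPKM in RS and 1.00, 0.765 and 0.477 in PD (1.70 ± 0.30, limma adjusted p = 3.79e-04). An antisense de novo transcript overlaps H3c1, and since the sources do not say whether counting used the strand, reads of the pair cannot be told apart. On its own strand H3c1 shares a de novo gene with H4c1 (chr13:23759645-23762512). That gene had 0.18, 0.19 and 0.16 RPKM in PD, 2.28, 2.20 and 2.32 in RS and 3.39, 8.42 and 3.55 in EES. Its part in the H3c1 values was not tested. The call of H3c1 was lost with a pseudocount of 1 RPKM (log2 fold change 0.95) and with quantile normalization (1.04, adjusted p = 0.0611).

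In elongating spermatids the members stayed low, and most genes that passed the filter fell on the deposited scale. In EES vs RS 6 of 51 members fell and 11 rose, against 54.9% and 15.8% of all tested genes, with a median log2 fold change of 0.17 for the members and -1.42 for all genes. Among the 11 were 7 of the 12 H3 genes, and no H3 gene fell. The EES libraries lay wholly above the RS libraries for 9 members and wholly below for 6, against 19.1% and 57.2% of all tested genes. Rises were 22.3% of all changed genes on the deposited scale and 53.7% with each library centred on its median; with that centring 32 members rose and 1 fell. The calls rest on low values: a pseudocount of 1 RPKM left 1 rise, and the rises numbered 6 without RS replicate 3 and 6 without EES replicate 3.

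Sertoli markers moved in this comparison too, with 6 of 9 tested up and 2 down and sums of 16.0, 8.79 and 25.7 RPKM in EES, against 6.97 to 8.03 in RS. The 3 erythroid markers tested all rose, with sums of 1.17 to 3.95 RPKM in EES and 0.242 to 0.533 in RS. The part of both in the rises of the members was not tested.

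The rise with the highest level was that of H3c1, which had 8, 8.54 and 5.63 RPKM in EES, against 2.62, 2.19 and 2.25 in RS (1.63 ± 0.30, limma adjusted p = 2.60e-04). All EES libraries were above all RS libraries. The largest rise by fold was that of H3c10, with 0.376, 0.151 and 0.382 RPKM in EES and 0.0451, 0 and 0.0367 in RS, which are 14, 6 and 19 reads against 2, 0 and 2 (3.29 ± 0.65, adjusted p = 4.39e-04). H3c11 had 0.134, 0.351 and 0.181 RPKM in EES and 0.0902, 0.0353 and 0 in RS (2.59 ± 0.71, adjusted p = 0.00453). H3c15 had 2.63, 1.5 and 2.31 RPKM in EES and 0.781, 0.953 and 0.843 in RS (1.28 ± 0.37, adjusted p = 0.00621).

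Other rises were smaller or rested on few reads. H4c17 and H4c18 rose by 1.5 ± 0.54 each (limma adjusted p = 0.0217 and 0.0210), to at most 0.824 and 1.07 RPKM in EES, and H2bc14 rose by 1.28 ± 0.48 (adjusted p = 0.0275), to at most 1.12 RPKM. H2ac15 passed the test with 1, 6 and 7 reads in EES against 0, 3 and 0 in RS. Leaving out RS replicate 3 ended the calls of H4c17, H4c18, H2bc14 and H2ac15, with adjusted p of 0.108, 0.114, 0.0976 and 0.0698 in turn.

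The falls were led by chromosome 3. H2bc21 had 0.223, 0.492 and 0.268 RPKM in EES, against 6.19, 7.08 and 5.73 in RS (-4.31 ± 0.62, limma adjusted p = 3.83e-05). H2ac20 had 1.06, 1.11 and 1.06 RPKM in EES and 7.77, 3.18 and 3.93 in RS (-2.08 ± 0.52, adjusted p = 0.00261), and H2ac21 had 1.32, 2.02 and 1.86 in EES and 8.97, 5.93 and 5.52 in RS (-1.96 ± 0.56, adjusted p = 0.00627). For these neighbours the stages did not overlap. With median centring H2ac20 and H2ac21 were at -0.63 and -0.51 and no longer passed, and H2bc21 still did.

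H4c3 had 1.32, 2.65 and 2.73 RPKM in EES and 9.06, 4.97 and 4.48 in RS (-1.46 ± 0.48, limma adjusted p = 0.0129); its call was lost without RS replicate 1 or EES replicate 1 (adjusted p = 0.0626 and 0.0598) and with median centring (-0.02). H2bc22 was split among the EES libraries. It had 2.17, 64.2 and 7.79 RPKM in EES and 45.5, 37.7 and 38.5 in RS (-1.97 ± 0.84, adjusted p = 0.0458), with EES replicate 2 above all RS libraries and the other replicates below them. Its call was lost in 14 of the 15 fits that left out 1 library (adjusted p 0.0527 to 0.251; -0.85 without EES replicate 1), without the filter (0.0915) and with only the 2 stages fitted (0.173). H4c1 had 5.29, 27.0 and 5.71 RPKM in EES and 5.45, 4.27 and 5.70 in RS, again with EES replicate 2 alone far above (adjusted p = 0.155). EES replicate 2 also stood nearer to RS in the summed proliferation markers, at 52.5 RPKM, against 5.46 and 11.2 in the other EES libraries and 231 to 299 in RS, and its part in these values was not tested.

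Between the elongating stages no member passed the test. In LES vs EES 0 of 51 rose and 0 fell in limma, against 0.00754% and 0% of all tested genes, where 14 of the 51 members had an unadjusted p under 0.05, against 6.93% of all genes. The largest difference was that of H2bc18, with 0.908, 1.3 and 2.88 RPKM in LES and 0.145, 0.406 and 0.195 in EES (2.68 ± 0.49, limma adjusted p = 0.0798), named after its values were seen. All LES libraries lay above all EES libraries for 13 members, against 6.62% of all tested genes, and below for none, against 1.54%. Without the filter 1 member rose and none fell, against 0.549% and 0.0122% of all genes.

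Against round spermatids, more members were higher in LES. In LES vs RS 22 of 51 rose and 4 fell, against 17.4% and 55.4% of all tested genes, with a median log2 fold change of 1.00 for the members and -1.43 for all genes. The rises were 8 of 12 H3, 6 of 11 H4, 6 of 14 H2B and 2 of 14 H2A genes. The LES libraries lay wholly above the RS libraries for 23 members and wholly below for 6, against 22.5% and 63.2% of all tested genes. Rises made up 23.9% of the changed genes of the table, and 56.2% with median centring, where 41 members rose and 2 fell. With a pseudocount of 1 RPKM 5 members rose.

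The levels reached stayed far below those of LZ. H4c17 had 2.36, 1.18 and 4.2 RPKM in LES and 0.277, 0.433 and 0.131 in RS (3.12 ± 0.54, limma adjusted p = 1.61e-04), after 172, 333 and 201 in LZ. H4c18 rose by 3.08 ± 0.54 (adjusted p = 1.66e-04). H2bc18 had 0.908, 1.3 and 2.88 RPKM in LES and 0.122, 0.0952 and 0.198 in RS (3.41 ± 0.49, adjusted p = 3.59e-05), and H2bc4 had 0.667, 0.347 and 1.63 in LES and 0.0721, 0.119 and 0.111 in RS (2.76 ± 0.55, adjusted p = 4.68e-04). H3c10 rose by 3.84 ± 0.65 and H3c11 by 3.51 ± 0.71 (adjusted p = 1.28e-04 and 5.11e-04). H2ac15 and H2ac13 were the H2A genes that rose, H2ac15 with 8, 15 and 11 reads in LES against 0, 3 and 0 in RS, and H2ac13 by 1.76 ± 0.57 (adjusted p = 0.0117), a call lost without RS replicate 2 (1.06, adjusted p = 0.0623). In each of these genes every LES library was above every RS library.

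The falls were those of H2bc21, H2bc22, H2ac20 and H2ac21. H2bc21 had 0.423, 0.302 and 0.989 RPKM in LES and 6.19, 7.08 and 5.73 in RS (-3.62 ± 0.62, limma adjusted p = 1.49e-04). H2bc22 had 4.61, 3.09 and 7.29 RPKM in LES and 45.5, 37.7 and 38.5 in RS (-3.10 ± 0.84, adjusted p = 0.00407). H2ac20 and H2ac21 fell by 2.14 ± 0.52 and 2.04 ± 0.56 (adjusted p = 0.00207 and 0.00463), calls that median centring ended (log2 fold changes of -0.60 and -0.50).

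LES replicate 3 had the highest summed level of the members in LES, 133 RPKM against 91.3 and 80.9. The same library had the highest sums of the Sertoli markers, 54.7 RPKM against 33.8 and 16.1 (RS 6.97 to 8.03), and of the macrophage and lymphoid markers, 85.9 against 20.8 and 33.3 (RS 4.31 to 4.63). Cd3e, Cd79a and Ptprc stayed below 1 RPKM in all libraries. H2bc1, an LZ and PD transcript, was at 90.9 RPKM in LES replicate 3, 27.3 and 15.6 in the other LES libraries and 6.94 to 24 in RS. Without LES replicate 3, 18 members rose and 6 fell in LES vs RS, against 2183 and 7491 of 13260 tested genes. The median log2 fold change of the members was then 0.71. The part of other cells or carried-over RNA in the LES rises was not tested.

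The related lists are set against the 54.9% of all tested genes that fell and the 15.8% that rose in EES vs RS. Of 19 tested 3′ processing genes 14 fell and none rose, led by Cstf2t at -4.54 ± 0.38, Lsm1 at -4.35 ± 0.48 and Ncbp1 at -3.78 ± 0.67. Slbp stood at 0.476, 4.2 and 0.916 RPKM in EES and 10.2, 11.2 and 9.81 in RS (-3.07 ± 0.59, limma adjusted p = 3.96e-04). Polyadenylation genes fell in 11 of 16 and rose in 1, and S-phase genes fell in 18 of 29 and rose in 3, shares not far from those of all genes, with Fen1, a flap endonuclease, up by 4.79 ± 0.32. Among linker histone genes 1 of 5 rose in EES vs RS and 5 of 5 in LES vs RS, where H1f1 had 10.1, 4.97 and 13.2 RPKM in LES and 1.63, 3.36 and 1.34 in RS.

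Across all 5 stages, 49 of the 51 tested members differed by the F test in limma, against 97.2% of all tested genes. The 2 without a call were H2ac18 and H3c14.

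The deposited de novo assembly gave a second view of the same loci. A de novo gene on the member's strand overlapped 49 of the 53 members, and 5 de novo genes held more than 1 member each. In 22 members the de novo gene ran more than 200 bases past the annotated 3′ end, in 7 the overlapping transcript was spliced, and in 16 there was also an antisense de novo transcript.

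H4c3 read differently in the assembly. Its de novo gene (chr13:23695805-23698556) runs 2279 bases past the annotated end and had 483, 420 and 263 RPKM in PD, against 164, 256 and 346 in LZ, with overlapping libraries. The H4c3 row of the gene table, by contrast, was lower in every PD library than in every LZ library. The de novo gene of H4c8 (chr13:23530547-23534355), which also holds H2ac10, had 11.2, 8.50 and 6.29 RPKM in PD and 16.8, 28.5 and 36.9 in LZ, the same order as the gene table.

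The highest stage also differed for H3c15 and H3c13 on chromosome 3, both with their highest table mean in PD. The de novo gene of H3c15 (chr3:96236473-96238766), which covers 44.4% of it, had 0.396, 0.431 and 0.438 RPKM in PD and was highest in EES, with 0.722, 0.544 and 0.565. The de novo gene that H3c13 shares with H2bc18 (chr3:96268920-96270215) covers 47.0% of H3c13 and had 5.60, 3.77 and 2.38 RPKM in PD, against 5, 7.22 and 9.31 in LZ, its highest stage.

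The de novo gene on chromosome 3 that holds H2ac21 and H2bc21 (chr3:96219792-96223957) had 15.5, 14.9 and 15.4 RPKM in PD and 0.381, 0.358 and 2.15 in LZ, close to the values of both rows. The de novo gene over H2ac18 (chr3:96245226-96246406) had 3.15, 3.44 and 3.63 RPKM in PD and 0.774, 0.510 and 1.47 in LZ, far below the H2ac18 row of 92.5, 82.0 and 66.9 in PD. The row counts H2ac18 with its copy H2ac19, and the part of reads shared by the copies in this gap was not tested.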

How the data were processed

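RNA-seq values of 17 libraries were used as deposited. The submitters' processing notes name Trim Galore and STAR, with no version, and the builds GRCm38 and mm10. Both tables hold log2 values deposited by the authors, log2 of 100 × RPKM plus 1. For 99.98% of genes these correspond to whole numbers of reads within 0.01 read, and library totals were recovered from them. The other deposited file holds positions of de novo transcripts, from StringTie 1.3.4d per the file headers. RNA was total RNA and libraries were made with a TruSeq kit, per the labels; poly(A) selection, strandedness and the handling of multi-mapped reads were not stated, and stem-loop mRNAs have no poly(A) tail.

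RPKM was (2^value - 1)/100. Genes with at least 1 RPKM in 3 of 15 stage libraries (13260 genes) entered 1 linear model in limma 3.58.1 (R 4.3.3, eBayes with trend); RS23 and PrmES stayed out. A call needed an adjusted p under 0.05 over all tested genes and a log2 fold change of at least 1 in size. The fit was tested on simulated data. No count model was fitted. Symbols and spans came from RefSeq (GRCm38.p6), exon lengths, stop codons and coding sequences from GENCODE M21. No protein sequence is printed.

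Members, gene lists, tests and alternatives were chosen with earlier results of these data known. Named members are the 2 highest by LZ mean of each core type, the 2 largest calls per type, direction and comparison, members highest outside LZ, and those of chromosome 3; of each gene list up to 3 calls per direction. Replicate numbers were checked for pairing: deviations from stage means correlated at -0.25 to 0.24 over 30 same-numbered pairs, 4 of them over 0.1. Low correlations cannot settle whether same-numbered libraries share a mouse or a sort, and the main fit did not pair them. Alternatives were the pseudocount, the filter, scaling, the trend, the block, the samples fitted and libraries left out.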

Additional observations from a re-analysis of the deposited data

Results flagged for a closer look

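The juvenile round spermatid library, RS23, enters no comparison, and several of its summed levels stood above those of the adult round spermatid libraries. The summed level of all members was 264 RPKM in RS23, against at most 182 in an RS library. The chromosome 13 sum was 172 RPKM in RS23 and at most 77.6 in RS. By type the sums were 94.9 for H2A, 79.9 for H2B and 71.9 for H4 in RS23, against at most 84.9, 58.4 and 20.9 RPKM in RS. H3, at 17.2 RPKM in RS23 and at most 17.4 in RS, and chromosome 3, at 91.9 in RS23 and at most 104 in RS, did not stand above. RS23 was above all 3 RS libraries for 48 of the 53 members and below all of them for 4. H4c12, for example, had 10.6 RPKM in RS23 and 0.677 to 1.07 in RS. The same was not counted over all genes, so whether the members stand out in this was not tested. Markers of other cells were higher in RS23 too, with sums of 21.4 RPKM for Sertoli markers (6.97 to 8.03 in RS), 11.3 for macrophage and lymphoid markers (4.31 to 4.63), 4.13 for erythroid markers (0.242 to 0.533) and 15 for spermatogonial markers (8.15 to 9.17), and their part was not tested. The library differs from RS in its titled age, its stain and its column prefix, which cannot be told apart, and with 1 library there is no test.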

How the results depend on the processing

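No named member reversed under any alternative run; 1187 values for named members kept their direction and side of the threshold and 79 lost the call, 53 of them in EES vs RS. With a pseudocount of 1 RPKM, RS vs PD had 0 rises and 21 falls, EES vs RS 1 rise and LES vs RS 5 rises. Without a filter 1 member rose in LES vs EES, and with a filter at 5 RPKM 7 rose in EES vs RS. Median centring gave 32 rises and 1 fall in EES vs RS, 1 rise in LES vs EES, and 41 rises and 2 falls in LES vs RS. Quantile normalization gave 0 rises in RS vs PD, 25 rises and 1 fall in EES vs RS, 1 rise in LES vs EES and 2 falls in LES vs RS. Fitting only the 2 stages compared gave 2 rises for RS vs PD, and for EES vs RS it gave 7. Without LZ replicate 3 and EES replicate 2 there were 2 rises in RS vs PD and 1 in LES vs EES. Apart from the pseudocount and filter, whose construction lowers the weight or number of low genes, the cause was not tested.

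Leaving out 1 library at a time gave 1 to 2 rises in RS vs PD (2 without PD replicate 2 or EES replicate 2), 6 to 13 rises in EES vs RS (6 without RS replicate 3 or EES replicate 3) and 0 to 1 rises in LES vs EES (1 without EES replicate 2 or LES replicate 1). Reapplying the filter after leaving out an LZ library, an alternative chosen after seeing the data, kept 32 members, since those at 1 RPKM in the 3 LZ libraries alone then drop out. Without LZ replicate 1, 2 or 3 in this way 23, 22 and 22 members fell in PD vs LZ, 22, 22 and 24 fell in RS vs PD, 6 rose each time in EES vs RS, 12, 13 and 13 rose in LES vs RS, and 30, 30 and 32 differed among the 5 stages. Without LZ replicate 3 and EES replicate 2 in this way the counts were 24 falls in PD vs LZ, for RS vs PD 2 rises, for EES vs RS 7, for LES vs RS 14 and 32 among the stages.

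Libraries with the same replicate number showed little common deviation (30 pairs, 4 correlations over 0.1), which does not settle whether they are paired. With the replicate block the counts for PD vs LZ were 4 rises and 42 falls, for RS vs PD 1 rise and 36 falls, and for EES vs RS 11 rises and 5 falls, where H2bc22 no longer passed (adjusted p = 0.0522). Depth limits the low members: 7 to 9 of the 53 had at most 3 reads in an RS library.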

Other observations

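The Prm1-EGFP-sorted elongating spermatid library, PrmES, lies outside the comparisons too. Its members summed to 119 RPKM, within the LES range of 80.9 to 133. It was above all 3 LES libraries for 22 of the 53 members and below all of them for 5. The same was not counted over all genes, so whether the members stand out in this was not tested. PrmES differs from LES in its titled sort, its stain and its column prefix, which cannot be told apart. Sertoli markers summed to 71.6 RPKM in PrmES, against 16.1 to 54.7 in LES, and erythroid markers to 20.7, against 1.86 to 5.69, and their part was not tested. H2ac20 and H2ac21 stood at 7.45 and 6.87 RPKM in PrmES, against at most 1.17 and 2.00 RPKM in LES. H2bc21, the neighbour of both, had 0.757 RPKM in PrmES, within the LES values of 0.302 to 0.989.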
